A study of Mus musculus with 12 samples.

Results

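Heme synthesis was followed through 7 enzymes, Alas1, Alad, Uros, Urod, Cpox, Ppox and Fech, taken in pathway order. Every probe set whose only gene symbol in the platform's probe table was one of these names was counted as a member, which gave 18 of the 45037 probe sets tested and 7 of the 18193 genes. Alas1, Alad, Uros and Urod had 2 probe sets each, Cpox and Ppox had 3 each and Fech had 4. The cells were TSC2-/- mouse embryonic fibroblasts (MEFs), in which loss of Tsc2 leaves mTOR kinase signalling unchecked, grown in DMEM with CCS. Every group carried that deletion and no cells with Tsc2 were among the arrays analysed. In the first experiment, cells received 20 nM rapamycin, an mTOR inhibitor, for 14 h, or the vehicle DMSO for 14 h. In the second, confluent cells were infected for 10 h with an adenovirus carrying PGC-1alpha, a coactivator of mitochondrial gene transcription, or with one carrying GFP, a fluorescent protein, and RNA was taken 14 h after a change of medium. Each of the 4 groups had 3 Affymetrix MOE430 v2 arrays, described in the series design text as biological triplicates. The labels do not say whether the cells were 1 line or several. Per the series title, the study was about control of mitochondrial genes by mTOR, YY1 and PGC-1alpha.

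Heme is an iron-holding porphyrin ring that serves the respiratory chain, catalase and many other proteins. Its synthesis starts in the mitochondrion, where Alas1 joins glycine to succinyl-CoA, moves to the cytosol for the middle steps, and ends in the mitochondrion, where Fech inserts iron. Alas1 is the rate-limiting enzyme outside the erythroid lineage and is repressed by heme, and in mouse liver PGC-1alpha is known to raise Alas1 in fasting. The step between Alad and Uros was not analysed here.

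Array medians lay between 77.5 and 81.0 intensity units. The 8 fibroblast markers summed to 54937 to 58936 on rapamycin arrays, 53792 to 54904 on vehicle arrays, 50060 to 50411 on PGC-1alpha arrays and 46028 to 49828 on GFP arrays. Of the 8 fibroblast markers 3 rose with rapamycin, Fn1, Pdgfrb and S100a4, against 11.3% of all genes. The call of Fn1 was lost under either spike scaling (scaling to control probe sets; adjusted p = 0.0879 and 0.925) and that of S100a4 with the hybridisation spikes (0.189). Thy1 lay lower on every rapamycin array than on every vehicle array without passing the test (log2 change -0.20, adjusted p = 0.0536), and it was called lower with dim probe sets left out, the intensity trend, 1 fit over 12 arrays, the replicate block or either spike scaling, and without rapamycin replicate 2 (0.000779 to 0.0415). Of 7 erythroid markers 5 were measured and of 5 hepatocyte markers 4, and none was called in either comparison. Over all genes 11.3% rose and 18.0% fell with rapamycin, and 1.41% rose and 0.594% fell with PGC-1alpha. Alas2, the erythroid isoenzyme of Alas1, averaged 37.5 units with rapamycin and 39.0 with vehicle, and 47.7 with PGC-1alpha and 42.7 with GFP, below the array medians. Of 5 macrophage markers 2 rose with rapamycin, against 11.3% of all genes. The 5 summed to 681 to 701 with rapamycin and 613 to 638 with vehicle. In PGC-1alpha cells they summed to 514 to 547 and in GFP cells to 505 to 549. The leukocyte marker Ptprc averaged 26.7 with rapamycin and 24.6 with vehicle. None of the 5 was called under either spike scaling. Over all genes 7.45% rose with all spikes and 3.32% with the hybridisation spikes. Of 4 epithelial markers 2 rose with rapamycin, against 11.3% of all genes. The 4 summed to 1419 to 1475 with rapamycin and 1170 to 1238 with vehicle. In PGC-1alpha cells they summed to 1302 to 1383 and in GFP cells to 1228 to 1376. Under either spike scaling 1 of the 4 rose, and with the hybridisation spikes 1 also fell, against 46.1% of all genes. The ratio of the 3' to the 5' Gapdh control probe set, a sign of RNA quality, was 0.807 to 0.826 on rapamycin arrays against 0.840 to 0.861 on vehicle arrays, and 0.894 to 0.905 on PGC-1alpha arrays against 0.865 to 0.879 on GFP arrays. The fibroblast sums and this ratio parted the groups in both experiments and the macrophage and epithelial sums parted rapamycin from vehicle, and their part in the results was not tested. The SD of log2 differences from GFP replicate 3 was 0.142 to 0.151 for the PGC-1alpha arrays and 0.155 and 0.167 for the other GFP arrays. Results without that array are therefore also given for both Alas1 probe sets, the brightest of Alad and some counts and calls. Ppargc1a, the gene for PGC-1alpha, averaged 2344 ± 191 units in PGC-1alpha cells and 87.8 ± 11.8 in GFP cells by its brightest probe set, the only 1 of its 5 that rose (SD, n = 3 each; log2 change 4.74 ± 0.09 SE, limma adjusted p = 3.6e-11). In bulk RNA, fewer cells of a type and less RNA per cell cannot be told apart.

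The promoters of the 3 enzymes that fell with rapamycin are shown because most results turn on these genes. RefSeq windows of 250 bases before to 50 after a gene's start (build GRCm38.p6) were used for 6 of the 7 enzymes, all but Fech, in 9 windows among 32851. They were searched on both strands for 7 motifs chosen after the values were seen. Capitals mark a match, and the second of the 2 windows is printed for Alas1 (chr9:106247681-106247980, minus strand) and for Alad (chr4:62519860-62520159, minus strand) beside the single window of Cpox (chr16:58669958-58670257, plus strand).
Alas1: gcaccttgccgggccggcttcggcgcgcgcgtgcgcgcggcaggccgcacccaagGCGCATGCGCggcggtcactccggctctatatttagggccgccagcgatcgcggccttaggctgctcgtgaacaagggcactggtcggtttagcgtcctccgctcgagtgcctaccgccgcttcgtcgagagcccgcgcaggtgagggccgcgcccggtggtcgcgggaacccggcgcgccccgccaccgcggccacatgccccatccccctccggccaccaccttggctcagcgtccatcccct
Alad: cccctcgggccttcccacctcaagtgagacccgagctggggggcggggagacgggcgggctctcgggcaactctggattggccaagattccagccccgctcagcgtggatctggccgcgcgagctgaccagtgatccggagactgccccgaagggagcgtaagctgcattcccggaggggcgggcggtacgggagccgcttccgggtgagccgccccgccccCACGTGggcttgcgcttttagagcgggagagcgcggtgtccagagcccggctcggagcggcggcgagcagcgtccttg
Cpox: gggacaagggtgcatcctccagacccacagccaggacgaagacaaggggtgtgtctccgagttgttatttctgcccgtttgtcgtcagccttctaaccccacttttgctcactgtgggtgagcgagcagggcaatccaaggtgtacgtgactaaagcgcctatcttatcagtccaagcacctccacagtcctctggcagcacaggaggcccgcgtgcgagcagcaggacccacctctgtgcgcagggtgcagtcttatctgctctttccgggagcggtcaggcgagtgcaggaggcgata
The NRF1 motif GCGCATGCG stood on both strands, a base apart, in both Alas1 windows, which overlap and share this 1 site, and in 1.75% of all windows. The E-box CACGTG stood in both Alad windows, in 1 of the 2 Uros windows and in the Urod window, against 7.15% of all windows. The YY1 motif AAGATGGCG (1.40% of all windows), the estrogen-related receptor motif AAGGTCA (4.72%), the FOXO motif GTAAACA (3.65%), the ATF4 composite element TGATGNAAN (3.95%) and the cAMP response element TGACGTCA (1.79%) had no match in the 9 windows. Cpox and Ppox held none of the 7, which says only that these letters are not in those windows. The printed windows hold 73.3% G and C for Alas1, 71.3% for Alad and 58.7% for Cpox, against a median of 52.7% over all windows. The first windows, not printed, hold less, 65.3% for Alas1 and 60.0% for Alad. Uros holds 60.3% and 48.7% in its windows, Urod 53.3% and Ppox 54.3%.

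Rapamycin lowered 3 of the 7 enzymes, Alas1, Alad and Cpox, and raised Uros, by the probe set of each gene with the highest mean. A change was called where limma's p-value, adjusted by Benjamini-Hochberg over all 45037 probe sets, was under 0.05. By that rule 5 of 18 member probe sets fell, against 14.0% of all probe sets, and 1 rose, against 11.5%. Counted by gene, 18.0% of all 18193 genes fell and 11.3% rose. The median log2 change was 0.01 over the 18 member probe sets and -0.00 over all probe sets, so the members moved in both directions around the middle of the array. All 3 rapamycin arrays lay below all 3 vehicle arrays at 6 member probe sets, against 19.9% of all probe sets, and above them at 2, against 18.0%.

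**Figure D1:**
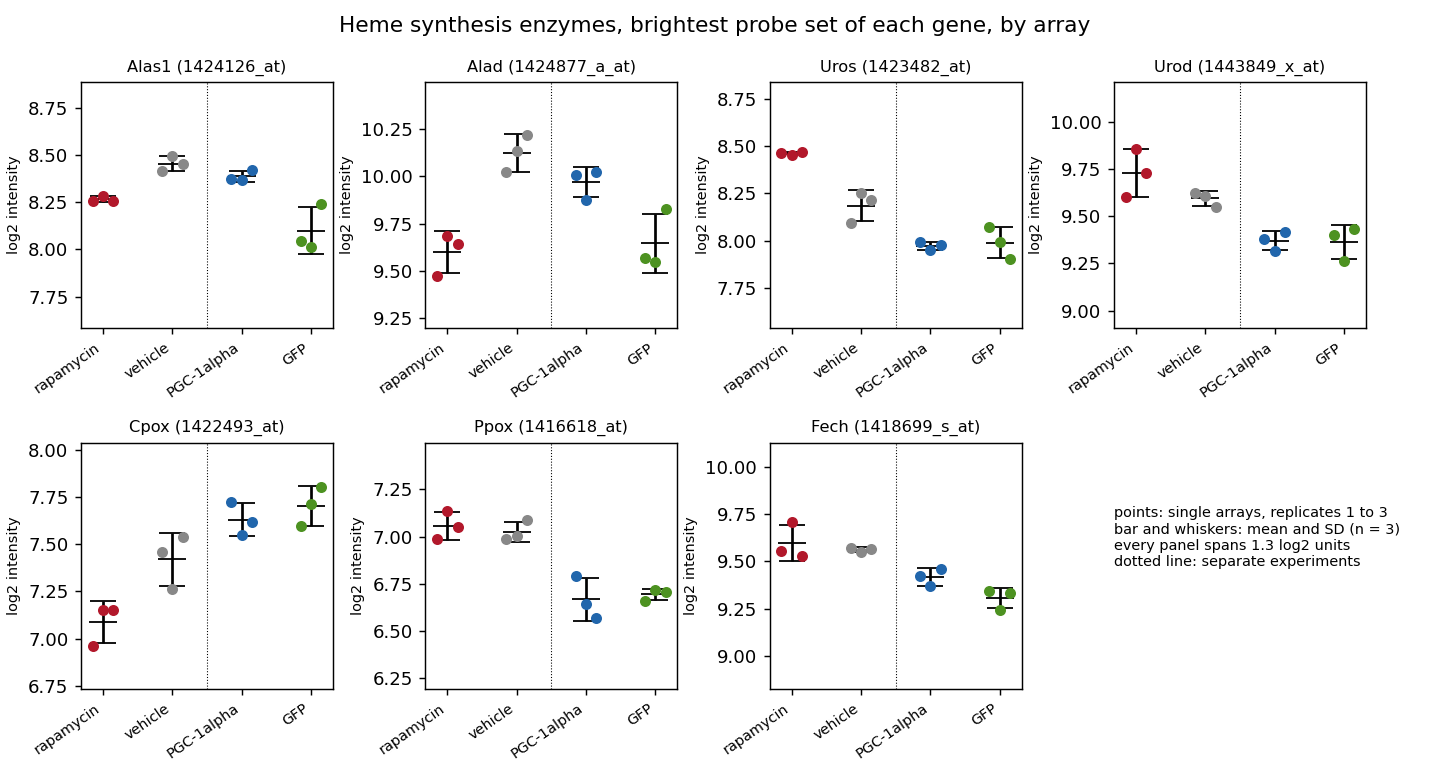
Each panel plots the log2 intensity of 1 enzyme's brightest probe set on every array (points), with the group mean and SD (bar and whiskers, n = 3), for rapamycin, vehicle, PGC-1alpha and GFP cells; the dotted line parts the 2 experiments, and every panel spans the same range. Alas1, Alad and Cpox lie lower on the rapamycin than on the vehicle arrays without overlap and Uros lies higher. Alas1, Alad and Fech lie higher on every PGC-1alpha array than on every GFP array.

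Alas1, the first enzyme of the pathway, fell modestly. Probe set 1424126_at read 306, 312 and 305 units with rapamycin against 341, 360 and 350 units with vehicle. No rapamycin array reached a vehicle array. The means were 307.7 ± 3.42 with rapamycin and 350.6 ± 9.49 with vehicle (SD, n = 3 each), 1.14-fold lower (log2 change -0.19 ± 0.05 SE, limma adjusted p = 0.0167). Leaving out rapamycin replicate 3 (log2 change -0.18, adjusted p = 0.0612) or vehicle replicate 2 (-0.17, adjusted p = 0.0744) ended that call, as did the mean of both Alas1 probe sets (-0.10, adjusted p = 0.126). The dimmer probe set 1455282_x_at, at 45.3 to 51.4 units with rapamycin and 47.2 to 52.0 with vehicle, gave a log2 change of -0.01 (95% interval -0.15 to 0.13, adjusted p = 0.940).

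Alad, which joins a pair of aminolevulinate molecules into porphobilinogen, had the largest fall among the member probe sets. Probe set 1424877_a_at read 711, 824 and 799 units with rapamycin against 1039, 1123 and 1191 units with vehicle. The highest rapamycin array lay well below the lowest vehicle array. The means were 777.9 ± 59.4 with rapamycin and 1118 ± 76.1 with vehicle (SD, n = 3 each), 1.44-fold lower (log2 change -0.52 ± 0.07 SE, 95% interval -0.67 to -0.37, limma adjusted p = 8.7e-05). Probe set 1457306_at read 189, 172 and 171 units with rapamycin against 207, 193 and 215 units with vehicle, again without overlap. Its log2 change was -0.21 ± 0.06 SE (limma adjusted p = 0.0241), and the call was lost without rapamycin replicate 2 (adjusted p = 0.0652) or 3 (0.0999) or without vehicle replicate 1 (0.0781) or 3 (0.0929), and with quantile normalization over 12 arrays (0.0518).

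Uros, which closes the linear tetrapyrrole into the ring, was the only enzyme with a probe set that rose, and its probe sets disagreed. Probe set 1423482_at read 354, 351 and 355 units with rapamycin against 273, 305 and 297 units with vehicle. Every rapamycin array lay above every vehicle array, and the rapamycin arrays hardly differed among themselves. The means were 353.2 ± 1.79 with rapamycin and 291.6 ± 16.6 with vehicle (SD, n = 3 each), 1.21-fold higher (log2 change 0.28 ± 0.06 SE, limma adjusted p = 0.00243), a call lost when arrays were scaled to the hybridisation spikes (log2 change 0.09, adjusted p = 0.394). Probe set 1440535_at read 98.1, 101 and 100.4 units with rapamycin against 110, 105 and 110 units with vehicle, all below. Its log2 change of -0.12 did not pass the test (95% interval -0.23 to -0.00, adjusted p = 0.132), but did after scaling to all spikes (-0.18, adjusted p = 0.0263) or the hybridisation spikes (-0.31, adjusted p = 0.00569). The mean of both Uros probe sets changed by 0.08 (adjusted p = 0.181).

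Urod, the cytosolic decarboxylase after Uros, did not pass the test at either probe set. Probe set 1443849_x_at read 778, 925 and 848 units with rapamycin against 790, 781 and 749 units with vehicle. The groups overlapped through rapamycin replicate 1, and the log2 change was 0.13 (95% interval -0.01 to 0.28, limma adjusted p = 0.172), or 0.20 without that replicate (adjusted p = 0.0448). Probe set 1417206_at read 462, 480.5 and 462 units with rapamycin against 453, 441 and 448 units with vehicle, without overlap but close (log2 change 0.07, 95% interval -0.05 to 0.18, adjusted p = 0.423). With quantile normalization over 12 arrays both passed, at 0.23 (adjusted p = 0.00672) and 0.14 (adjusted p = 0.0406).

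Cpox, the mitochondrial coproporphyrinogen oxidase, fell at its pair of brighter probe sets. Probe set 1422493_at read 125, 142 and 142 units with rapamycin against 176, 154 and 186 units with vehicle. The means were 136.3 ± 10.2 with rapamycin and 171.9 ± 16.4 with vehicle (SD, n = 3 each), 1.26-fold lower (log2 change -0.33 ± 0.08 SE, limma adjusted p = 0.00534). Both groups stood apart. Probe set 1422492_at read 51.4, 57.0 and 61.5 units with rapamycin against 69.1, 78.6 and 74.5 units with vehicle, 1.31-fold lower (log2 change -0.39 ± 0.07 SE, limma adjusted p = 0.00116). Neither call was lost in any alternative fit of the probe sets. Probe set 1440747_at, at 25.6 to 30.8 units with rapamycin and 30.3 to 30.4 with vehicle, overlapped and was not called (log2 change -0.11, adjusted p = 0.275).

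The last steps did not pass the test. Ppox, which oxidises protoporphyrinogen, read 127, 141 and 132 units with rapamycin against 127, 128 and 136 units with vehicle at 1416618_at (log2 change 0.03, 95% interval -0.09 to 0.16, limma adjusted p = 0.769). These groups overlapped. Its other probe sets had log2 changes of 0.08 (adjusted p = 0.648) and 0.10 (adjusted p = 0.273), and the first of these, 1441862_at, was called at 0.22 without rapamycin replicate 2 (adjusted p = 0.0157). Fech, the ferrochelatase, read 752, 836 and 739 units with rapamycin against 761, 748 and 758 units with vehicle at 1418699_s_at (log2 change 0.04, 95% interval -0.09 to 0.16, adjusted p = 0.739). Rapamycin replicate 2 was the highest of the 6 and the groups overlapped. The other Fech probe sets changed by -0.01 to 0.08 on the log2 scale, with adjusted p of 0.357 to 0.964.

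**Figure D2:**
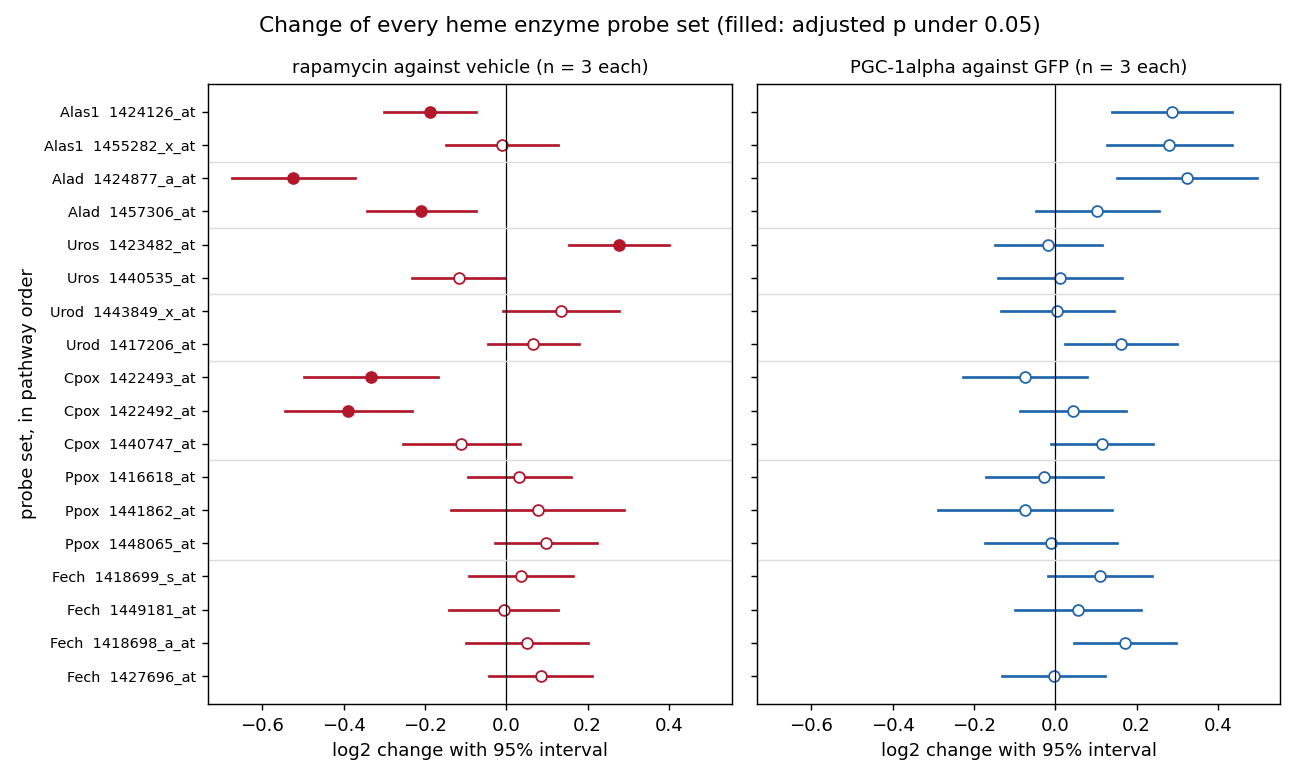
Log2 change with its 95% interval for each of the 18 member probe sets in pathway order, rapamycin against vehicle on the left and PGC-1alpha against GFP on the right (n = 3 arrays per group), with filled points for adjusted p under 0.05. On the left 5 points are filled below 0 (1 of Alas1 and 2 each of Alad and Cpox) and 1 above (Uros), and on the right none is filled, with the largest changes at Alas1 and Alad.

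With adenoviral PGC-1alpha, Alas1 and Alad were higher on every PGC-1alpha array than on every GFP array, by 1.22-fold and 1.25-fold, but no member passed the test when all 6 arrays were used. By limma 0 of 18 probe sets were called, against 0.997% of all probe sets that rose and 0.955% that fell. All PGC-1alpha arrays lay above all GFP arrays at 7 member probe sets, against 7.76% of all probe sets, and below them at 0, against 7.91%. The 7 were both of Alas1, the brightest of Alad, 1 of Urod, 1 of Cpox and 2 of Fech. The Cpox one, 1440747_at, read 22.6 to 23.5 units with PGC-1alpha and 20.5 to 21.9 with GFP, far below the array medians. Probe sets of 1 gene measure the same transcripts and are not separate evidence. The median log2 change was 0.05 over the 18 member probe sets and -0.00 over all. The brightest probe sets of Alas1 and Alad did pass with dim probe sets left out, in 1 fit over 12 arrays, with quantile normalization over 12 arrays, with spike scaling and with the replicate block, at adjusted p of 0.00785 to 0.0480.

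Alas1 at 1424126_at read 331, 331 and 343 units with PGC-1alpha against 264, 258 and 303 units with GFP. GFP replicate 3 was the highest of its group and lay nearest to the PGC-1alpha arrays. The means were 334.8 ± 7.08 in PGC-1alpha cells and 275.0 ± 24.1 in GFP cells (SD, n = 3 each; log2 change 0.29 ± 0.07 SE, 95% interval 0.14 to 0.44, limma adjusted p = 0.0566). Without GFP replicate 3 the log2 change was 0.36 and passed the test (adjusted p = 0.00339). Leaving out that array also took the raised calls over all 45037 probe sets from 449 to 1957. The dimmer probe set 1455282_x_at read 57.8, 61.8 and 61.4 units with PGC-1alpha against 51.9, 44.8 and 52.7 units with GFP. Its change was of like size (log2 change 0.28 ± 0.07 SE, adjusted p = 0.0734) and passed without GFP replicate 3 (0.32, adjusted p = 0.0194). Without any other single array neither Alas1 probe set passed, with limma adjusted p of up to 0.241 and 0.276.

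Alad at 1424877_a_at read 1031, 941 and 1041 units with PGC-1alpha against 759, 747 and 909 units with GFP. Here too GFP replicate 3 was the highest of its group, though below every PGC-1alpha array. The means were 1004 ± 55.3 in PGC-1alpha cells and 804.9 ± 90.0 in GFP cells (SD, n = 3 each; log2 change 0.32 ± 0.08 SE, 95% interval 0.15 to 0.50, limma adjusted p = 0.0636). Without GFP replicate 3 the log2 change was 0.41 (adjusted p = 0.00287). Without any other single array this probe set did not pass, with limma adjusted p of up to 0.269. At 1457306_at the readings were 210, 206 and 190 units with PGC-1alpha against 192, 200 and 173 units with GFP, which overlapped (log2 change 0.10, adjusted p = 0.667).

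The later enzymes gave smaller values. Uros at 1423482_at read 255, 247 and 252 units with PGC-1alpha against 269, 255 and 240 units with GFP (log2 change -0.02, 95% interval -0.15 to 0.12, limma adjusted p = 0.961). The groups overlapped fully. Urod at 1443849_x_at read 666, 637 and 683 units with PGC-1alpha against 676, 614 and 691 units with GFP (log2 change 0.00, 95% interval -0.13 to 0.14, adjusted p = 0.991). Its other probe set, 1417206_at, read 392, 372 and 396 units with PGC-1alpha against 345, 326 and 368 units with GFP, all above, with a log2 change of 0.16 that did not pass (95% interval 0.02 to 0.30, adjusted p = 0.312). The 2 Urod probe sets thus differed in whether their groups overlapped. Cpox at 1422493_at read 211, 187 and 196 units with PGC-1alpha against 193, 210 and 224 units with GFP (log2 change -0.07, 95% interval -0.23 to 0.08, adjusted p = 0.805). Ppox at 1416618_at read 111, 99.97 and 94.8 units with PGC-1alpha against 101, 105 and 104 units with GFP (log2 change -0.03, adjusted p = 0.942). Neither Cpox nor Ppox separated the groups at these probe sets. The other Cpox probe sets changed by 0.04 at 1422492_at (limma adjusted p = 0.882) and 0.12 at 1440747_at (0.484). The other Ppox probe sets changed by -0.08 at 1441862_at (0.879) and -0.01 at 1448065_at (0.982). The dimmer Uros probe set, 1440535_at, changed by 0.01 (0.980). Among these dimmer probe sets only 1440747_at separated the groups.

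Fech at 1418699_s_at read 685, 661 and 705 units with PGC-1alpha against 650, 607 and 644 units with GFP. All 3 PGC-1alpha arrays lay above, but the log2 change of 0.11 did not pass (95% interval -0.02 to 0.24, limma adjusted p = 0.527). Probe set 1418698_a_at read 140.4, 137 and 142 units with PGC-1alpha against 125, 119 and 129 units with GFP, also without overlap (log2 change 0.17, 95% interval 0.05 to 0.30, adjusted p = 0.211). Its other pair of probe sets overlapped, with log2 changes of 0.06 and -0.00.

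Whether the 2 treatments acted differently was tested as the rapamycin change minus the PGC-1alpha change in 1 limma fit over all 12 arrays. The experiments share no arrays, but they differ in confluence, infection and normalization batch as well as in treatment, which cannot be told apart here. Of 18 member probe sets 5 were lower in this contrast, against 12.0% of all probe sets, and 1 was higher, against 8.7%. Alad had changes of -0.52 with rapamycin and 0.32 with PGC-1alpha, a difference of -0.85 ± 0.11 SE (95% interval -1.08 to -0.61, adjusted p = 1.7e-05). Alas1 differed by -0.48 ± 0.09 SE (95% interval -0.65 to -0.30, adjusted p = 0.000397), from -0.19 with rapamycin and 0.29 with PGC-1alpha. These 2 enzymes open the pathway. Their dimmer probe sets differed in the same direction, by -0.29 for Alas1 (adjusted p = 0.0421) and -0.31 for Alad (adjusted p = 0.0238), calls that did not hold without single arrays. For Alas1 these were GFP replicate 2, PGC-1alpha or rapamycin replicate 2 or 3 and any vehicle array (adjusted p = 0.0503 to 0.125), and for Alad PGC-1alpha replicate 1 or 2, rapamycin replicate 2 or 3 and vehicle replicate 1 or 3 (0.0507 to 0.0659). Uros at 1423482_at differed by 0.29 ± 0.08 SE (adjusted p = 0.0139), which became -0.06 when arrays were scaled to the hybridisation spikes (adjusted p = 0.740), 0.16 with all spikes (adjusted p = 0.302) and, just missing the threshold, 0.25 without vehicle replicate 1. Cpox differed at 1422492_at (-0.43 ± 0.10 SE, adjusted p = 0.0026), which read 51.4 to 78.6 units over the 12 arrays, near or below the array medians. Its brightest probe set, 1422493_at, did not pass (-0.26, 95% interval -0.49 to -0.03, adjusted p = 0.113) unless vehicle replicate 2 (-0.34, adjusted p = 0.0343) or GFP replicate 3 (-0.31, adjusted p = 0.0491) was left out. The third Cpox probe set, 1440747_at, passed only without rapamycin replicate 3 among the arrays left out (-0.23 with all, adjusted p = 0.0822, and -0.29 without it, adjusted p = 0.0221). No probe set of Urod, Ppox or Fech passed with the deposited normalization.

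Genes that break down, move and use heme were counted from lists chosen with earlier results in view, by the brightest probe set of each gene. Of 4 heme breakdown genes 2 fell with rapamycin, against 18.0% of all genes, and none rose. Hmox1, the inducible heme oxygenase, averaged 546 ± 31.5 units with rapamycin and 815 ± 17.8 with vehicle (SD, n = 3 each; log2 change -0.58 ± 0.06 SE, limma adjusted p = 8.7e-06). Hmox2, the constitutive form, had a log2 change of -0.21 (adjusted p = 0.0100), or -0.12 with quantile normalization over all 12 arrays, which ended the call (adjusted p = 0.0869) and left 1 of 4. Under either spike scaling all 4 fell, against 24.3% of all genes with all spikes and 46.1% with the hybridisation spikes. With PGC-1alpha 0 of 4 were called, against 1.41% of all genes that rose and 0.594% that fell, and Hmox1 and Blvra, the biliverdin reductase A, had the smallest p (log2 changes 0.13 and 0.10, adjusted p = 0.637 and 0.652).

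Of 15 measured genes of heme, porphyrin and iron transport 7 fell with rapamycin, against 18.0% of all genes, and 2 rose, against 11.3%, with a median log2 change of -0.12 against -0.01 over all genes. Flvcr1, described as a heme exporter, averaged 74.3 ± 4.66 units with rapamycin and 135 ± 3.17 with vehicle (SD, n = 3 each; log2 change -0.87 ± 0.06 SE, limma adjusted p = 5.4e-07). Falls were also called for Slc25a28, the mitochondrial iron carrier mitoferrin-2 (-0.45, adjusted p = 0.000106), Abcb6, a porphyrin transporter (-0.42, adjusted p = 0.000277), and Abcg2, a porphyrin exporter (-0.28, adjusted p = 0.00451). The heme-binding protein Pgrmc1 rose (0.25, adjusted p = 0.00419), but neither it nor the other riser Tspo was called after scaling to the hybridisation spikes, which left 0 risers and 11 falls, in a fit where 46.1% of all genes fell. With PGC-1alpha 1 of the 15 rose, Slc25a39, a mitochondrial glutathione carrier needed for heme synthesis in mice and zebrafish. It averaged 4049 ± 123 units in PGC-1alpha cells and 2920 ± 172 in GFP cells (SD, n = 3 each; log2 change 0.47 ± 0.06 SE, adjusted p = 0.00238), and fell with rapamycin (-0.22, adjusted p = 0.00934). Of the 5 Slc25a39 probe sets 4 rose with PGC-1alpha and 2 fell with rapamycin. Without GFP replicate 3, 5 of the 15 rose with PGC-1alpha, and the share over all genes went up too, to 6.60%.

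Of the 3 genes that turn heme b into heme a or attach it to cytochrome c, Cox10, the heme O synthase, averaged 216 ± 10.5 units with rapamycin and 352 ± 7.38 with vehicle (SD, n = 3 each; log2 change -0.70 ± 0.06 SE, limma adjusted p = 1.6e-06). Hccs, the cytochrome c heme lyase, fell as well (-0.42, adjusted p = 0.000239), and Cox15 did not pass at its brightest probe set (-0.05, adjusted p = 0.662), though 2 of its 4 probe sets fell and the brightest was called with the hybridisation spikes (-0.24, adjusted p = 0.0255). Cox10 was the only one of the 3 that rose with PGC-1alpha (426 ± 25.6 units with PGC-1alpha and 302 ± 29.3 with GFP, log2 change 0.50 ± 0.08 SE, adjusted p = 0.00557), at 1 of its 3 probe sets. Without GFP replicate 3 all 3 rose, against 6.60% of all genes.

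Of 8 measured hemoproteins and respiratory subunits 5 fell with rapamycin, against 18.0% of all genes, and 2 rose, against 11.3%. Cyc1, cytochrome c1, fell by 0.63 on the log2 scale (limma adjusted p = 6.5e-06), Cyb5b of the mitochondrial outer membrane by 0.49 (8.1e-05), Sdhd of complex II by 0.42 (0.000129) and Cycs, cytochrome c, by 0.32 (0.000506). The risers were catalase, Cat (0.21, adjusted p = 0.0207), and Cyb5a (0.19, adjusted p = 0.0247), but neither passed under either spike scaling, and Cyb5a was -0.00 with the hybridisation spikes. The call of Cat was also lost without rapamycin replicate 2 or 3 or vehicle replicate 1 or 3 (adjusted p = 0.0610 to 0.0807), and that of Cyb5a without rapamycin replicate 3 or vehicle replicate 1 or 2 (0.0591 to 0.127). By probe set, Sdhd fell with rapamycin at 1 of its 2 and Cycs at 3 of its 4, and Cat rose at 1 of its 2. With PGC-1alpha 4 rose, against 1.41% of all genes, and none fell. Sdhd and Sdhc each rose at 1 of their 2 probe sets. Cycs, not called at its brightest, rose at 2 of its 4. The 4 genes called are given next. The 4 were Uqcrfs1, which carries an iron-sulfur cluster and no heme (0.44, adjusted p = 0.00621), Cyc1 (0.37, adjusted p = 0.0128), Sdhd (0.36, adjusted p = 0.0149) and Sdhc (0.26, adjusted p = 0.0499). The calls of Cyc1, Sdhd and Sdhc were lost without any 1 array other than GFP replicate 3 (adjusted p = 0.0556 to 0.232), and that of Sdhc also with the replicate block (0.0560) and with the hybridisation spikes (0.161).

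Of 9 genes that control Alas1 or answer to heme 4 fell with rapamycin, against 18.0% of all genes, and 2 rose, against 11.3%. With the hybridisation spikes 7 fell, against 46.1%, and 1 rose. Lonp1, a mitochondrial protease that degrades Alas1 protein, fell most (log2 change -0.65 ± 0.06 SE, limma adjusted p = 6.7e-06). Pprc1, a coactivator related to PGC-1alpha (-0.52, adjusted p = 1.9e-05), Nrf1, which binds the motif found in the Alas1 windows (-0.40, adjusted p = 0.000138), and Nfe2l2, an activator of Hmox1 (-0.24, adjusted p = 0.0124), fell too, the last not without vehicle replicate 2 (adjusted p = 0.0665) or with quantile normalization over 12 arrays (adjusted p = 0.0540). Bach1, a repressor of Hmox1 that heme releases from DNA, rose (0.42 ± 0.06 SE, adjusted p = 0.000129). The other riser was Foxo1, a forkhead factor (0.20, adjusted p = 0.0167), a call lost under either spike scaling and without rapamycin replicate 3 (adjusted p = 0.0847) or vehicle replicate 1 (adjusted p = 0.0846). With rapamycin Ppargc1a was not called at its brightest probe set over the 12 arrays, at 37.2 units against 40.7 with vehicle, below the array medians. Its log2 change was -0.13 (limma adjusted p = 0.188), or -0.32 with the hybridisation spikes (adjusted p = 0.00662). However, 3 of the 5 Ppargc1a probe sets fell with rapamycin. Nrf1 fell at 2 of its 4 probe sets and Nfe2l2 at 1 of its 2, while Foxo1 rose at 2 of its 4. With PGC-1alpha only Ppargc1a itself was called among the 9.

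**Figure D3:**
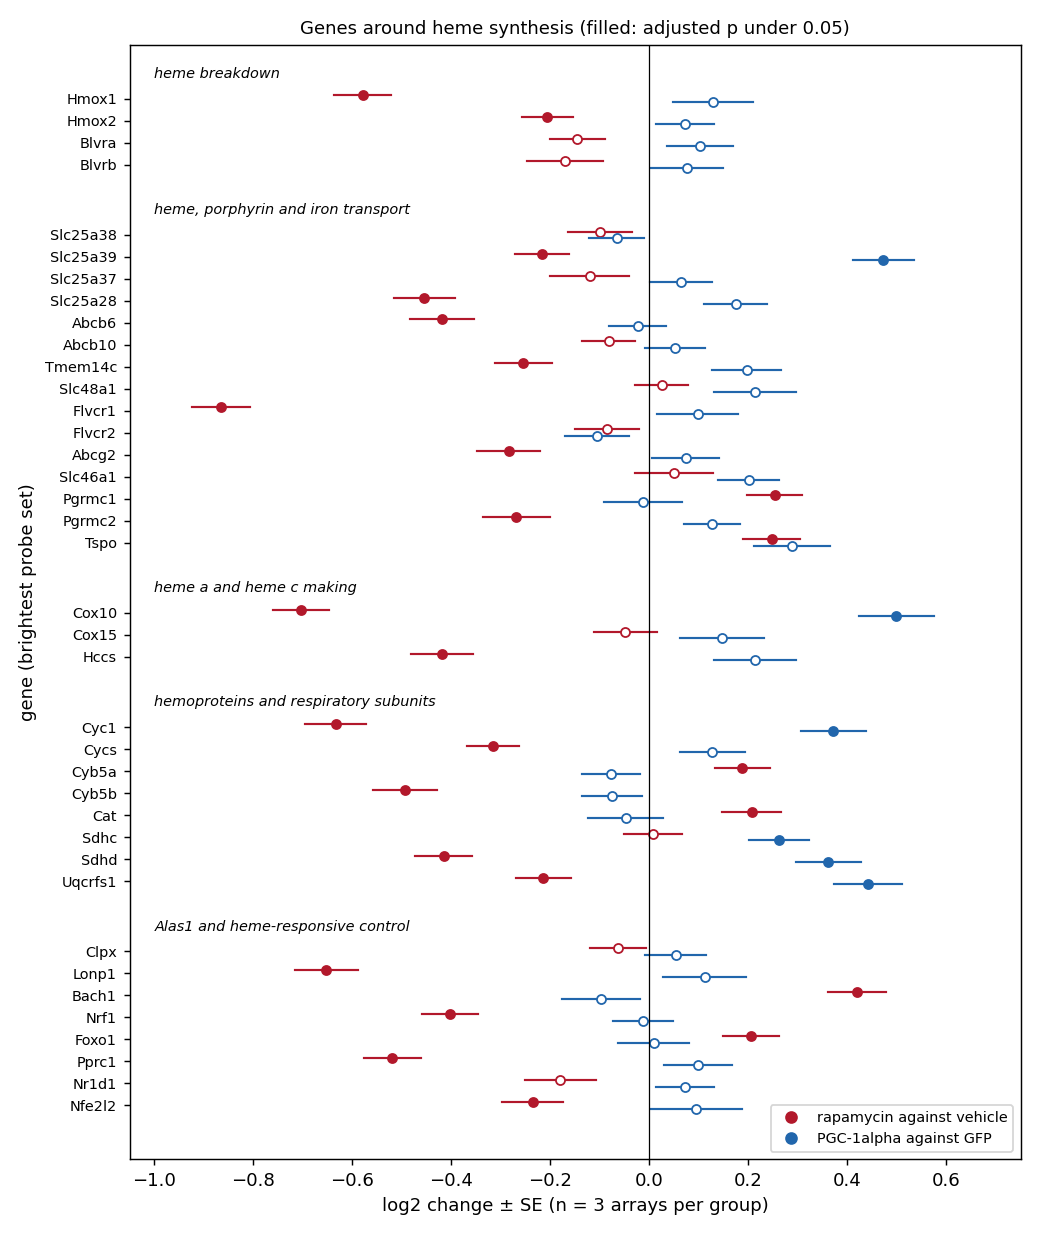
Log2 change ± SE by the brightest probe set of each gene that breaks down, moves, modifies, carries or controls heme, with rapamycin against vehicle in red and PGC-1alpha against GFP in blue (n = 3 arrays per group; filled for adjusted p under 0.05; Ppargc1a and Alas2 not drawn). Flvcr1, Cox10, Lonp1, Cyc1 and Hmox1 lie farthest below 0 with rapamycin, and Cox10 and Slc25a39 farthest above 0 with PGC-1alpha.

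Across the 12 arrays, after each experiment's mean was taken off, the log2 values of Alas1 and Alad had a Pearson r of 0.884, and Uros ran against Alad (-0.75) and Cpox (-0.81). These values describe 12 arrays that share 4 treatments, so they largely restate the group differences. Among 9497 genes with a mean log2 value of at least 7, the profiles most like Alas1 were those of Mrpl43, a mitochondrial ribosomal protein (r = 0.982), Atp5c1, a subunit of the ATP synthase (0.980), and Mpc1, of the mitochondrial pyruvate carrier (0.975). Nearest to Alad were Larp4b (0.991), Cisd1, an iron-sulfur protein of the mitochondrial outer membrane (0.986), and Polr2m (0.985). Nearest to Uros were Ercc1 (0.960), Prrg3 (0.952) and Inpp4a (0.950), and to Urod Snhg8 (0.963), Tctex1d2 (0.946) and Rtraf (0.945). The best matches were weaker for Cpox, with Ighm (0.924), Cxcl10 (0.922) and Pdf (0.913), and weakest for Ppox, with Hspg2 (0.834), Efna5 (0.820) and Bcl2l1 (0.812). Fech was most like Bex3 (0.978), Pfkm (0.953) and Cdip1 (0.941).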

How the data were processed

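Labels gave the group and replicate number of each of 12 arrays. The deposited intensity values per probe set were made by the authors with RMA at default settings in BioConductor 1.2, 1 batch per experiment, per the series design text. Their scale is unstated. Values ran from 9.299 to 21072.4, were read as linear, and were turned into log2 without a pseudocount. RMA's quantile normalization hides a change in total RNA, so changes are relative to other probe sets. There were no detection calls to part dim probe sets from background. Precision is limited by having 3 arrays per group.

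Of 45101 probe sets, 64 controls were left out and 45037 tested without a filter. In the probe table, 34945 had 1 symbol, 932 several and 9160 none, and only the first kind was named. Limma 3.58.1 (lmFit, eBayes; R 4.3.3) was fitted on the 6 arrays of each comparison, two-sided, with Benjamini-Hochberg adjustment over 45037 and a threshold of 0.05; the contrast of the changes used all 12 arrays. P-values set each change against the spread between these arrays, with variances moderated by limma over all probe sets. Whether the triplicates came from separate cultures or days is not stated, so which variation between cultures that spread covers is unknown. The fit was tested on simulated data. Tables and figures used Python 3.11.15, pandas 2.3.3 and matplotlib 3.10.9.

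All member probe sets are described. From each list up to 4 called genes with the largest change are named per comparison plus the largest opposite one, or the 2 with the smallest p where none passed; the 3 genes most like each enzyme are named by Pearson r. Tspo, Cyb5a, Foxo1, Thy1 and, for rapamycin, Ppargc1a were named after their values were seen. Members and lists were chosen with earlier results of these data known. Alternatives were a pseudocount of 16, a filter on probe sets under log2 6, gene means, 1 fit over 12 arrays, quantile normalization over 12 arrays, an intensity trend with robust prior, spike scaling, a replicate block, leaving out each array, and hybridisation spike scaling, which was chosen after seeing the data.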

Additional observations from a re-analysis of the deposited data

How the results depend on the processing

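Each comparison was refitted under up to 15 alternatives and the contrast of the changes under 19. For the enzymes' own changes, 724 values kept direction and side of the threshold, 37 newly passed, 28 no longer passed and 61 turned sign, of which 60 were called in neither fit. The exception is the Uros contrast (1423482_at), at -0.063 with hybridisation spike scaling. With rapamycin, the 1 raised probe set became 0 with hybridisation spike scaling and 3 with quantile normalization over 12 arrays, and leaving out single arrays gave 1 to 2 raised and 3 to 5 lowered; by gene means 0 of 7 genes rose. Of all 45037 probe sets, 5168 rose in the main fit, 1448 with hybridisation spike scaling and 5999 with quantile normalization. Without single arrays 3947 to 5001 rose and 5148 to 6691 fell, against 6301 that fell in the main fit. By gene means 2208 of 18193 genes rose. With PGC-1alpha, 0 raised became 2 with dim probe sets left out, 2 with quantile normalization over 12 arrays, 2 with the replicate block, 3 with 1 fit over 12 arrays, 3 with spike scaling, and 0 to 3 when single arrays were left out, with 3 only without GFP replicate 3. Over all probe sets, 449 of 45037 rose in the main fit and 595 of 25221 with dim probe sets left out. The raised numbered 544 with quantile normalization, 436 with the replicate block, 807 with 1 fit and 1203 with spike scaling. Without GFP replicate 3 they numbered 1957, and without any other single array 113 to 144. In the contrast, 1 raised became 0 with either spike scaling and 2 with quantile normalization, and 5 lowered became 8 with spike scaling and 12 with hybridisation spike scaling; leaving out single arrays gave 0 to 1 raised and 3 to 6 lowered. Of all 45037 probe sets, 3919 were raised and 5385 lowered in the main contrast. The raised numbered 1771 with spike scaling, 418 with hybridisation spikes and 4846 with quantile normalization. The lowered numbered 9210 with spike scaling and 16701 with hybridisation spikes. Without single arrays 3329 to 4625 were raised and 4558 to 6465 lowered. Replicate numbers did not pair the arrays (r of same-numbered deviations -0.05, 0.07 and 0.00 with rapamycin, -0.13, 0.23 and -0.01 with PGC-1alpha); the replicate block changed no count of member calls other than those 2, Alas1 (adjusted p = 0.0480) and Alad (adjusted p = 0.0342).

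Hybridisation spike scaling moved the median log2 change of all probe sets to -0.19 with rapamycin, 0.16 with PGC-1alpha and -0.35 in the contrast, and spike scaling to -0.06, 0.07 and -0.13. The raised share of all calls was 45.1% with rapamycin (27.3% with spike scaling, 7.24% with hybridisation spikes), 51.1% with PGC-1alpha (82.1% and 91.1%) and 42.1% in the contrast (16.1% and 2.44%). All calls numbered 11469 with rapamycin and 20004 with hybridisation spikes, and 9304 in the contrast against 17119. With PGC-1alpha 879 were called, against 325 with hybridisation spikes, 1465 with spike scaling, 1485 with 1 fit over 12 arrays, 586 with the pseudocount, 2837 without GFP replicate 3 and 283 to 414 without any other single array. The cause of these shifts was not tested.

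The other turned signs were spread over 4 refits and the fits without single arrays. With hybridisation spike scaling the rapamycin changes of Urod (-0.055 and -0.12), Ppox (-0.16, -0.11 and -0.092) and Fech (-0.15, -0.14 and -0.10) became negative, as did those of Cyb5a (-0.0012) and Ptprc (-0.070). The PGC-1alpha changes of Uros (0.15), Cpox (0.094), Ppox (0.14, 0.094 and 0.16) and Fech (0.16) became positive, and the contrasts of Urod (-0.23), Ppox (-0.30, -0.20 and -0.25) and Fech (-0.27) negative. With spike scaling the same happened to Ppox (-0.029) and Fech (-0.025 and -0.0092) with rapamycin, to Uros (0.058), Cpox (0.0011), Ppox (0.049, 0.00015 and 0.064) and Fech (0.071) with PGC-1alpha, and to Urod (-0.0065), Ppox (-0.078 and -0.028) and Fech (-0.048) in the contrast. With quantile normalization over 12 arrays Fech turned with rapamycin (0.024), Urod (-0.029), Ppox (0.0099) and Fech (0.015) with PGC-1alpha, and Urod (0.012) and Fech (0.047) in the contrast; by gene means Cpox turned with PGC-1alpha (0.029). Leaving out single arrays, rapamycin changes crossed 0 for the dimmer Alas1 probe set (-0.052 to 0.039), Ppox (-0.0078 to 0.068), Fech (-0.020 to 0.069, -0.0017 to 0.12 and -0.044 to 0.044) and Cox15 (-0.085 to 0.0095). PGC-1alpha changes did so for Uros (-0.059 to 0.024 and -0.052 to 0.070), Urod (-0.047 to 0.038), Ppox (-0.088 to 0.023, -0.18 to 0.010 and -0.077 to 0.059) and Fech (-0.00049 to 0.12 and -0.029 to 0.024).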
